A study of Mus musculus with 6 samples.

Results

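Genes of neutrophil granules, cytosol and receptors, 10 in all, were taken by symbol from the deposited expression table: S100a8, S100a9, Mmp8, Mmp9, Cxcr2, Csf3r, Ngp, Ltf, Camp and Lcn2. All 10 were found, each on 1 of the 56691 rows. The libraries were made from Kupffer cells, the macrophages that live in liver sinusoids, and the labels spell them "Kuffer cells". Each of the 2 groups has 3 libraries. The 5-HT treated group comes from Vil1Cre-Myd88fl/fl mice with 5-HT (serotonin), and the untreated group from Vil1Cre-Myd88fl/fl mice without it. Floxed Myd88 and Vil1Cre, whose Cre acts in intestinal epithelium, are in the genotype label of both groups. Treated libraries are named 5-HT and untreated libraries KO by the submitters, and whether the groups differ in anything besides 5-HT is not stated. The sources used here do not give the dose, route or duration of 5-HT, whether mice or isolated cells received it, age, sex, the isolation method, or whether libraries came from separate animals. Without the last of these, p-values describe how these libraries vary, and some of that variation may be technical. Total counts per library ran from 15390956 to 19050039.

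Neutrophils build their granules in the bone marrow in a fixed order. Promyelocytes make the primary granule proteins, myelocytes and metamyelocytes make the secondary granule proteins such as lactotransferrin, cathelicidin and the neutrophilic granule protein, and later stages make gelatinase granules and the receptors that let the cell leave the marrow and reach inflamed tissue. The mRNA of many secondary granule proteins is largely shut off once the cell matures, while S100a8, S100a9, Mmp8, Mmp9, Cxcr2 and Csf3r mRNA is abundant in mature cells. S100a8, S100a9, Mmp9 and Csf3r are also expressed by monocytes or macrophages, and Lcn2 by hepatocytes and macrophages in inflammation. The genes were read in 2 sets on this basis: a mature set of 6 (S100a8, S100a9, Mmp8, Mmp9, Cxcr2, Csf3r) and an immature granule set of 4 (Ngp, Ltf, Camp, Lcn2). The sets follow the mRNA and do not sort the proteins by granule.

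All 6 genes of the mature set rose, by 2.70-fold to 8.21-fold (edgeR quasi-likelihood test, adjusted p = 0.0115 to 0.0413). None of the immature granule set passed the edgeR test. Ngp, Ltf and Camp had lower mean levels in 5-HT treated than in untreated libraries. Lcn2 had a higher level in every 5-HT treated library, with a fold of 3.55, and DESeq2 called it higher. Of the 9 genes with enough counts to be tested, 6 were called higher, against 4.55% of the 16641 genes tested, and 0 lower, against 3.19%. DESeq2 called 7 higher (background 7.76%) and 0 lower (6.37%), and limma on log2(FPKM + 1) called 5 higher (4.05%) and 0 lower (2.89%). At an unadjusted p under 0.05, edgeR gave 7 higher and 0 lower, against 12.7% and 11.5% of all genes tested. DESeq2 and limma each gave 7 higher and 1 lower, against 12.3% and 11.0% for DESeq2 and 12.3% and 12.1% for limma. The median log2 change was 2.01 over the mature set and -0.33 over the 3 tested genes of the immature set, against -0.02 over all genes tested. The groups did not overlap in FPKM (a level per length: fragments for each kilobase of exonic sequence, scaled to the total count) for 8 of the 10 genes, 7 higher and 1 lower, against 15.4% and 14.3% of all genes tested. In bulk RNA, more cells of a type and more RNA per cell cannot be told apart.

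**Figure D1:**
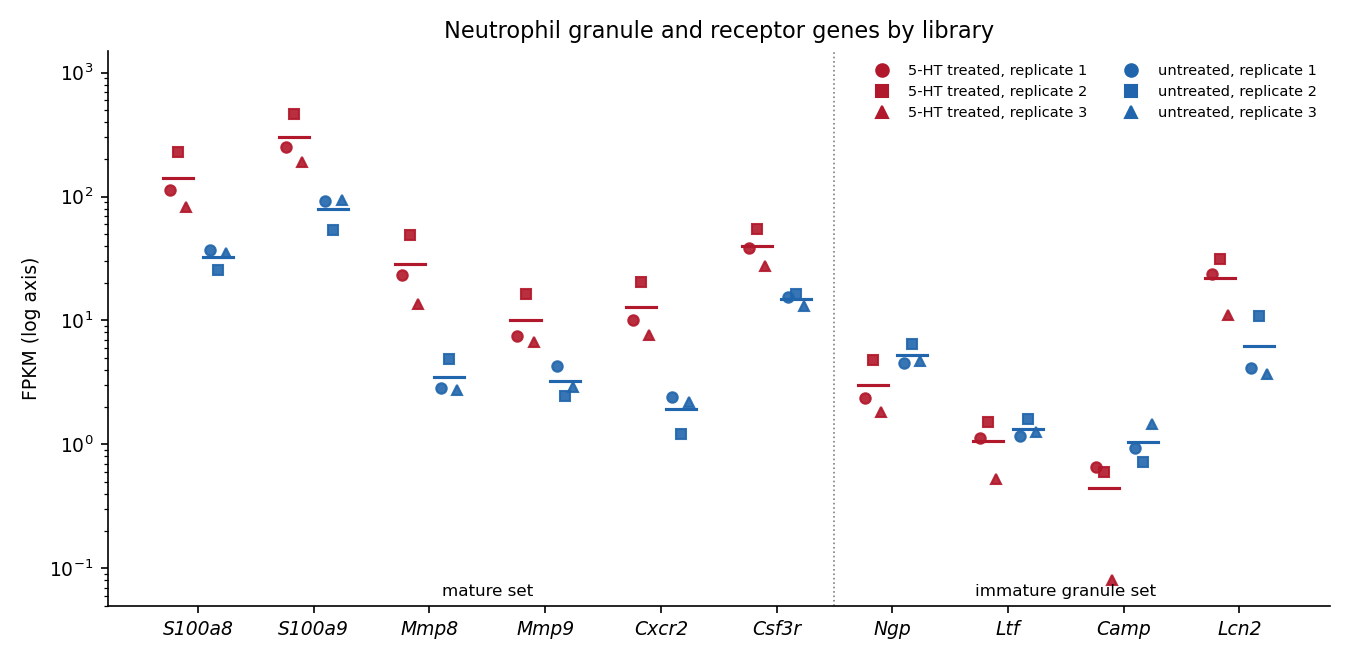
FPKM (log axis) of the 10 genes in each library, with 5-HT treated libraries in red and untreated libraries in blue; symbols mark the replicate and bars the group mean. The mature set, left of the dotted line, is higher in every 5-HT treated library, and Ngp and Ltf overlap between groups.

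The start regions of 5 of these genes are shown because both sets are known targets of C/EBP transcription factors, which act in granulocytes, and because each holds a match to the C/EBP motif TTGCNNAA. RefSeq start regions were found for 9 of the 10 genes (all but Mmp9). Each run below is the 250 bases before the start site on the gene's own strand, 5′ to 3′ in GRCm38.p6, and the capitals mark the matches, searched on both strands.
S100a9 (chr3:90695722-90695971, minus strand): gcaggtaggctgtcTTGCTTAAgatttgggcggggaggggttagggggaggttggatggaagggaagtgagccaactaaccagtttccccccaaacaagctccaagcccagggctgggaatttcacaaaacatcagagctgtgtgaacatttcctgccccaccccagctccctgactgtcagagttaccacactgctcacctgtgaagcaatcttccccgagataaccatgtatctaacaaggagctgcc
Mmp8 (chr9:7558179-7558428, plus strand): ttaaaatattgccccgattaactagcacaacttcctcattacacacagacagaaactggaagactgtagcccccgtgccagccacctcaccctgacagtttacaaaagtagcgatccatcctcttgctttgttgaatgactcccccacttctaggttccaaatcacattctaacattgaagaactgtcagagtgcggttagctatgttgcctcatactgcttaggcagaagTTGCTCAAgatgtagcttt
Ngp (chr9:110419558-110419807, plus strand): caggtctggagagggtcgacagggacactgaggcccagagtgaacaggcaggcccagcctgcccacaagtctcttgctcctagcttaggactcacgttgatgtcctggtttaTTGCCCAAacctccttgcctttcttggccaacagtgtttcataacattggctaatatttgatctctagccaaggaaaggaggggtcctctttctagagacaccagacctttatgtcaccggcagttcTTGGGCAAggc
Ltf (chr9:111019042-111019291, plus strand): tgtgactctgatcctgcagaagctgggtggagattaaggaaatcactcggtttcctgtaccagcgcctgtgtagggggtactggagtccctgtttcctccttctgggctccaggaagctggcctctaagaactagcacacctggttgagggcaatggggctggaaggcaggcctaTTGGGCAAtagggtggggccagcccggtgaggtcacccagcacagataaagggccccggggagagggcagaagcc
Lcn2 (chr2:32387740-32387989, minus strand): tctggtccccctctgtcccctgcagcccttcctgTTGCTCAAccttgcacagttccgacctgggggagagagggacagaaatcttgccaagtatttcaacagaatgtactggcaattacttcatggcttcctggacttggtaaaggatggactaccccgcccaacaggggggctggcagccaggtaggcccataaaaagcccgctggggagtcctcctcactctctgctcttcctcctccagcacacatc
The C/EBP motif was found in 5 of 9 windows, against 9.56% of all 32851 windows of the same length. Ngp held 2 matches, 138 and 11 bases before the start site. S100a9 and Mmp8 from the mature set held matches, as did Ngp, Ltf and Lcn2 from the other set, so the motif was on both sides of the contrast described here. The PU.1 motif GAGGAAG was found in S100a8, Mmp8, Csf3r and Lcn2 (4 of 9, against 10.6% of all windows), and the NF-kB motif in Csf3r alone (1 of 9, against 7.25%). No match overlapped one of another motif. A match describes letters in these windows and was not tested for binding.

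S100a8 and S100a9 encode the subunits of calprotectin, a calcium- and zinc-binding complex that fills the neutrophil cytosol. Their genes are neighbours on mouse chromosome 3, 22.6 kb apart (GENCODE M21, GRCm38: S100a8 at chr3:90668978-90670035, plus strand, and S100a9 at chr3:90692632-90695721, minus strand). S100a8 had 113, 227 and 81.9 FPKM in 5-HT treated replicates 1, 2 and 3, against 36.8, 25.8 and 35.2 FPKM in the untreated ones. S100a9 had 249, 466 and 188 FPKM in 5-HT treated libraries, against 91.7, 53.8 and 94.1 FPKM in untreated libraries. For both genes every 5-HT treated library lay above every untreated one, and the highest value was in 5-HT treated replicate 2. S100a8 rose 4.32-fold (log2 2.11, SE 0.37, edgeR adjusted p = 0.0168) and S100a9 rose 3.77-fold (log2 1.91, SE 0.37, edgeR adjusted p = 0.0235). The ratio of the 2 mRNAs overlapped between groups: S100a9 was 2.198, 2.05 and 2.30 times S100a8 per length in 5-HT treated libraries, against 2.49, 2.09 and 2.68 times in untreated libraries.

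The 2 metalloproteases of the set are Mmp8, neutrophil collagenase, and Mmp9, the gelatinase that gives the tertiary granules their name. Mmp8 (chr9:7558456-7568485, plus strand) had 23.2, 48.6 and 13.7 FPKM in 5-HT treated libraries, against 2.83, 4.91 and 2.73 FPKM in untreated libraries. Its fold was the largest of the 10 genes at 8.21 (log2 3.04, SE 0.48, edgeR adjusted p = 0.0118). Mmp9 (chr2:164940780-164955850, plus strand) had 7.43, 16.3 and 6.65 FPKM in 5-HT treated libraries and 4.27, 2.48 and 2.91 FPKM in untreated libraries. It rose 3.14-fold (log2 1.65, SE 0.38, edgeR adjusted p = 0.0413). The balance of the 2 proteases differed, with no test run on it: Mmp8 was 3.12, 2.99 and 2.06 times Mmp9 per length in 5-HT treated libraries, against 0.663, 1.98 and 0.938 times in untreated libraries, where replicate 2 came close to the lowest treated value. Timp1, a secreted inhibitor of both proteases, also rose, with 5.43, 14.6 and 4.41 FPKM in 5-HT treated libraries against 1.42, 1.42 and 2.01 FPKM in untreated libraries (log2 2.32, SE 0.49, edgeR adjusted p = 0.0331). In 6 of 13 alternatives Timp1 did not pass. Timp2, another inhibitor, had a log2 value of -0.76 and did not pass (edgeR adjusted p = 0.145).

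Cxcr2 is the receptor for the chemokines that draw neutrophils out of the marrow and into tissue, and Csf3r is the receptor for granulocyte colony-stimulating factor. Cxcr2 (chr1:74153989-74161246, plus strand) had 10.02, 20.6 and 7.66 FPKM in 5-HT treated libraries, against 2.40, 1.21 and 2.19 FPKM in untreated libraries. It rose 6.59-fold (log2 2.72, SE 0.42, edgeR adjusted p = 0.0115). Csf3r (chr4:126024550-126044440, plus strand) had 38.6, 54.6 and 27.5 FPKM in 5-HT treated libraries, against 15.6, 16.3 and 13.03 FPKM in untreated libraries. Its rise was the smallest of the set at 2.70-fold (log2 1.43, SE 0.23, edgeR adjusted p = 0.0127), and its untreated values were the closest together, with a highest over lowest of 1.25. Cxcr2 was 0.260, 0.377 and 0.279 times Csf3r per length in 5-HT treated libraries, above the 0.154, 0.0743 and 0.168 times of untreated libraries. This follows from the larger fold of Cxcr2, and the ratio was not tested.

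**Figure D2:**
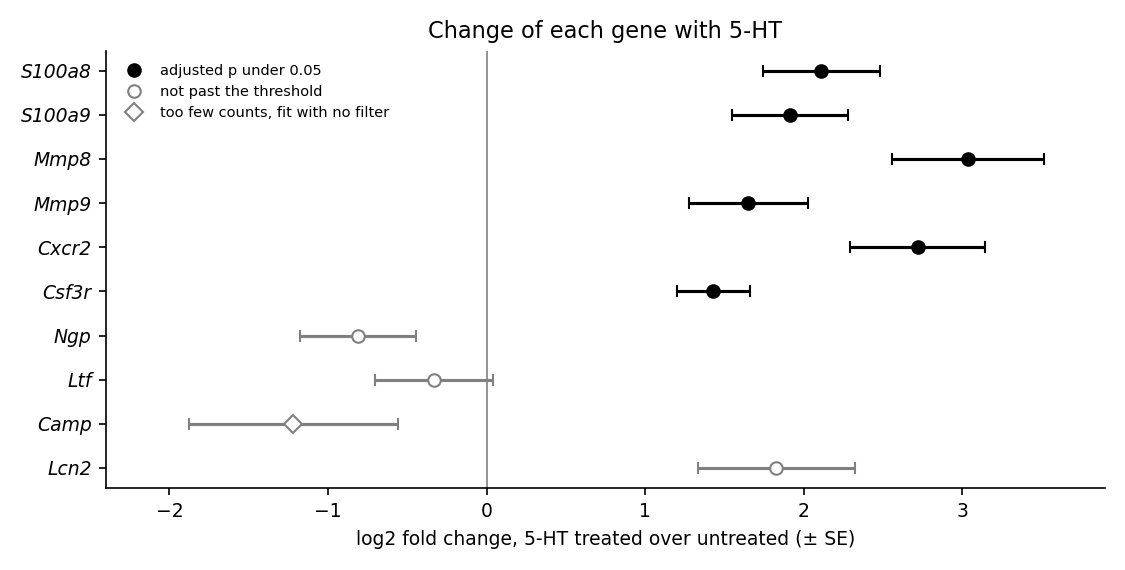
Log2 fold change of 5-HT treated over untreated for each gene, with SE bars; filled points have an edgeR adjusted p under 0.05, and Camp comes from a fit with no filter on low counts. The mature set lies between 1.43 and 3.04, while Ngp, Ltf and Camp lie below 0.

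The 6 calls of the mature set were lost without either of 2 untreated libraries. Without untreated replicate 1, edgeR called 0 of them (background 1.28%), with adjusted p from 0.0539 for Cxcr2 to 0.0915 for Mmp9. Without untreated replicate 3 it also called 0 (background 1.29%), with adjusted p from 0.0635 for Cxcr2 to 0.159 for Mmp9. At an unadjusted p under 0.05, 7 of the 10 genes were higher in both of these fits, as were 1526 of 17018 genes without untreated replicate 1 and 1714 of 17058 without untreated replicate 3. No other tool was run on them. Mmp9 lost its call without untreated replicate 2 (0.0856), and Mmp9 and S100a9 lost theirs without 5-HT treated replicate 1 (0.0708 and 0.0596). Without 5-HT treated replicate 2, the library with the highest values, all 6 passed (background 3.91%). Their log2 changes then ran from 1.13 for Mmp9 to 2.41 for Mmp8.

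**Figure D3:**
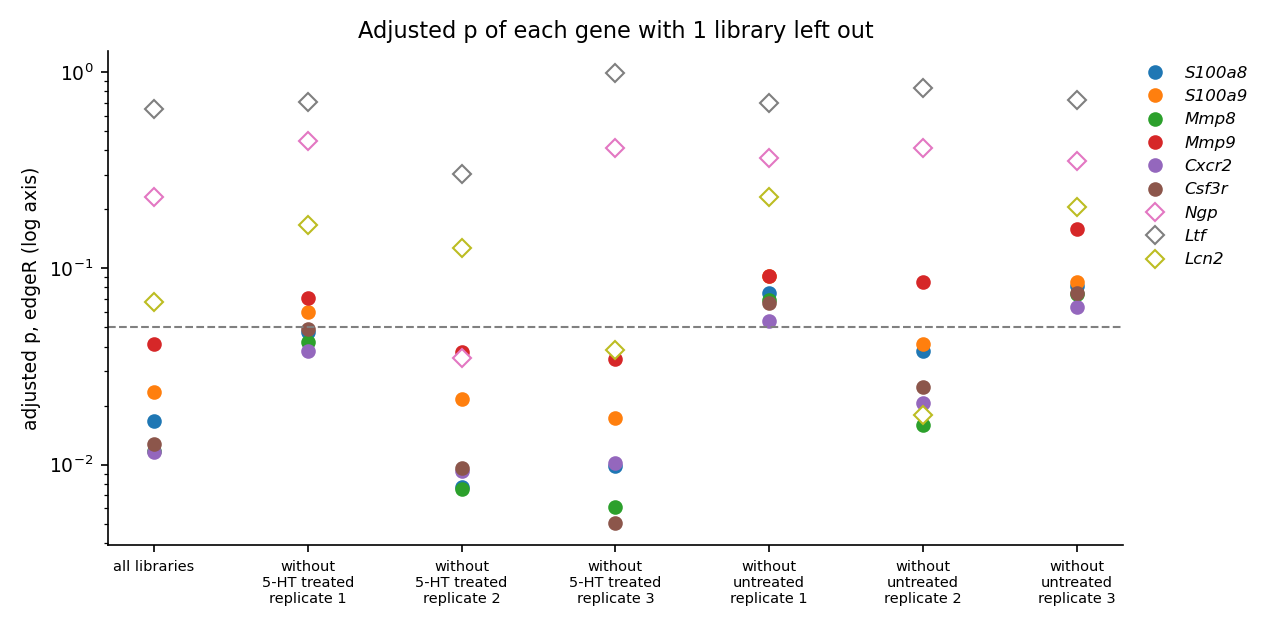
Adjusted p of edgeR (log axis) for the 9 tested genes with all libraries and with each library left out; the dashed line is 0.05, filled circles are the mature set and open diamonds the immature granule set. The circles cross the line together without untreated replicate 1 or 3.

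Ngp encodes a cathelicidin-related protein of secondary granules. Ngp (chr9:110419747-110423012, plus strand) had 2.36, 4.79 and 1.82 FPKM in 5-HT treated libraries, from 46, 90 and 38 counts, against 4.54, 6.51 and 4.73 FPKM in untreated libraries, from 101, 145 and 110 counts. The groups overlapped through 5-HT treated replicate 2, and the log2 value of -0.81 (SE 0.37) did not pass (edgeR adjusted p = 0.231). Without 5-HT treated replicate 2 Ngp was called lower (log2 -1.32, edgeR adjusted p = 0.0349), the only one of the 10 (background 2.86%), as it was without replicate 2 of both groups (log2 -1.14, edgeR adjusted p = 0.0305, background 6.2%), a fit chosen after seeing the data. That fit called 7 of the 10 higher, against 6.06% of all genes tested. Ltf, which encodes the iron-binding protein lactotransferrin (chr9:111019271-111042767, plus strand), had 1.12, 1.53 and 0.53 FPKM in 5-HT treated libraries, against 1.16, 1.59 and 1.25 FPKM in untreated libraries. The groups overlapped and the log2 value of -0.33 (SE 0.37) did not pass (edgeR adjusted p = 0.649).

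Camp, the gene of the antimicrobial peptide cathelicidin (chr9:109847379-109849617, minus strand), had too few counts for the filter. It had 8, 7 and 1 counts in 5-HT treated libraries (0.66, 0.60 and 0.08 FPKM), against 13, 10 and 21 counts in untreated libraries (0.94, 0.72 and 1.45 FPKM). Every 5-HT treated library was below every untreated one, and with no filter edgeR gave a log2 value of -1.22 (SE 0.66, adjusted p = 0.446). Camp, Ngp and Ltf lie in this order on chromosome 9, with gaps of 570.1 kb and 596.3 kb.

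Lcn2, a siderophore-binding protein of secondary granules that starves bacteria of iron, went the other way from the rest of its set. Lcn2 (chr2:32384633-32388252, minus strand) had 23.7, 31.2 and 11.0 FPKM in 5-HT treated libraries, against 4.11, 10.9 and 3.72 FPKM in untreated libraries. The lowest 5-HT treated and the highest untreated value nearly met, at 11.04 and 10.89 FPKM, and the log2 value of 1.83 (SE 0.49) did not pass (edgeR adjusted p = 0.0672). Lcn2 was called higher by DESeq2 (adjusted p = 0.0307) and in 5 of the other 12 alternative fits, among them the one without untreated replicate 2 (log2 2.48, edgeR adjusted p = 0.0179). Of 7 hepatocyte markers 2 had a positive log2 value, with a median of -0.12 over the 7. The 2 were Alb and Apoa1 (log2 0.69 and 0.57, edgeR adjusted p = 0.349 and 0.591). Alb, the most abundant of the 7, had 1240, 1080 and 369 FPKM in 5-HT treated libraries, against 578, 435 and 649 FPKM in untreated libraries. The part of hepatocytes in the Lcn2 values was not tested.

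Set against S100a8 in the same library, Ngp, Ltf and Camp had lower values with 5-HT. S100a8 itself rose 4.32-fold, so a gene that rose less, or not at all, is lower on this scale by construction. Per 100 FPKM of S100a8, Ngp had 2.08, 2.11 and 2.22 FPKM in 5-HT treated libraries, against 12.3, 25.3 and 13.5 FPKM in untreated libraries. The 3 treated values lay close together, while S100a8 itself varied 2.77-fold between those libraries. Ltf had 0.988, 0.673 and 0.647 FPKM per 100 FPKM of S100a8 in 5-HT treated libraries, against 3.15, 6.17 and 3.55 in untreated libraries. Camp had 0.582, 0.264 and 0.0976 in 5-HT treated libraries against 2.55, 2.80 and 4.12 in untreated libraries on the same scale. None of these 3 overlapped between groups. Lcn2 did overlap, with 20.9, 13.7 and 13.5 in 5-HT treated libraries against 11.2, 42.3 and 10.6 in untreated libraries. Within the mature set the same scale gave smaller shifts: Cxcr2 had 8.84, 9.04 and 9.35 in 5-HT treated libraries against 6.52, 4.70 and 6.23 in untreated libraries, and Csf3r had 34.1, 24.0 and 33.6 in 5-HT treated libraries against 42.4, 63.2 and 37.1 in untreated libraries. Mmp8 overlapped between groups, with 20.5, 21.4 and 16.7 in 5-HT treated libraries against 7.68, 19.1 and 7.76 in untreated libraries. These ratios were not tested.

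**Figure D4:**
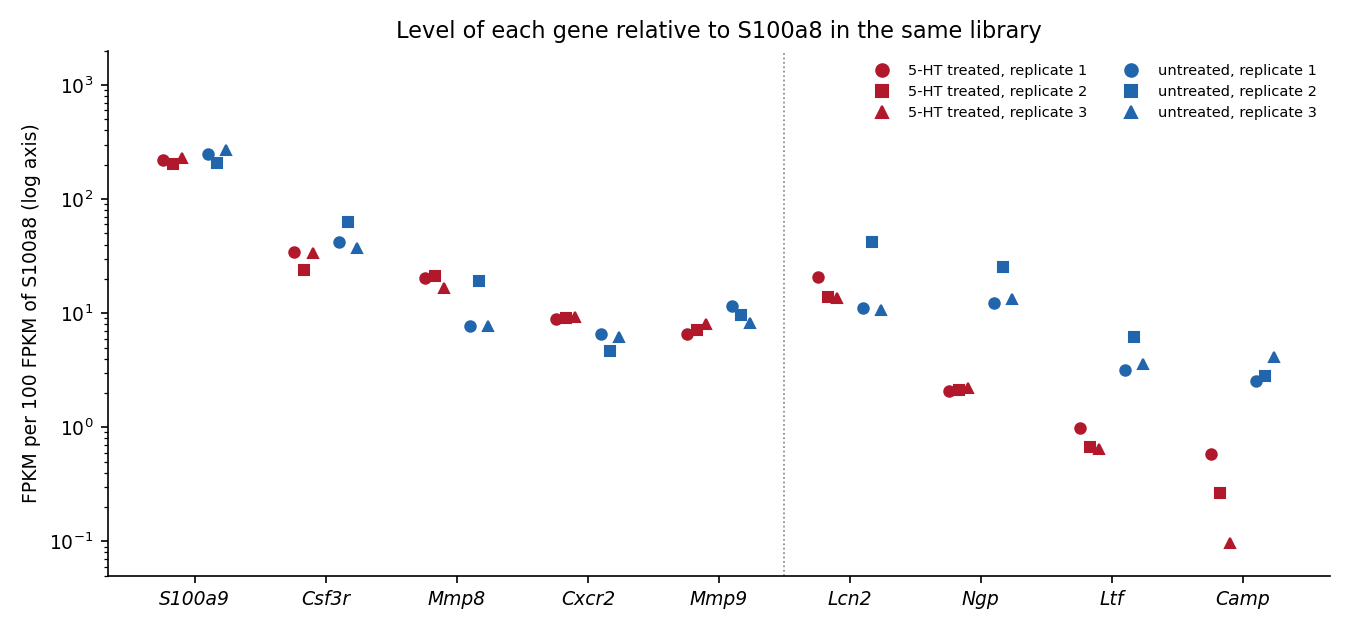
FPKM of each gene per 100 FPKM of S100a8 in the same library (log axis), 5-HT treated in red and untreated in blue, with the immature granule set right of the dotted line. Ngp, Ltf and Camp sit lower in all 3 5-HT treated libraries, from 0.0976 to 2.22 against 2.55 to 25.3, while Lcn2 overlaps.

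Summed FPKM of the mature set was 442, 834 and 326 in 5-HT treated libraries, against 154, 104 and 150 in untreated libraries. S100a8 and S100a9 gave most of it. Of the summed FPKM of all 10 genes they made up 77.2%, 79.6% and 79.7% in 5-HT treated libraries. In untreated libraries they made up 78.2%, 64.1% and 80.2%. The summed FPKM of the 4 immature granule genes was 27.8, 38.2 and 13.5 in 5-HT treated libraries, against 10.8, 19.7 and 11.2 in untreated libraries. Lcn2 gave most of it in every 5-HT treated library. The mature to immature ratio was thus 15.9, 21.9 and 24.2 in 5-HT treated libraries and 14.3, 5.30 and 13.5 in untreated libraries. On the log2 scale it averaged 4.35 ± 0.317 in 5-HT treated and 3.33 ± 0.803 in untreated libraries (SD, n = 3 each), a difference of 1.01 with no test. Without Lcn2 the ratio was 107, 121 and 134 in 5-HT treated libraries, against 23.1, 11.8 and 20.2 in untreated libraries. Without untreated replicate 2, whose ratio was the lowest, the log2 difference of the full sets was 0.55.

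The order of mean FPKM differed between the groups below the first 3 places. In 5-HT treated libraries it ran from S100a9 (301 ± 146) and S100a8 (141 ± 76.5) over Csf3r (40.2 ± 13.6), Mmp8 (28.5 ± 18.1), Lcn2 (22.0 ± 10.2), Cxcr2 (12.7 ± 6.86) and Mmp9 (10.1 ± 5.34) to Ngp (2.99 ± 1.58), Ltf (1.06 ± 0.503) and Camp (0.447 ± 0.319). In untreated libraries Lcn2 (6.24 ± 4.03) and Ngp (5.26 ± 1.09) came before Mmp8 (3.49 ± 1.23), Mmp9 (3.22 ± 0.934) and Cxcr2 (1.93 ± 0.635), all as FPKM mean ± SD with n = 3. In 5-HT treated libraries the ranges of neighbours in this order overlapped, apart from S100a8 and Csf3r, Mmp9 and Ngp, and Ngp and Ltf. In untreated libraries Csf3r was at 14.97 ± 1.72, and Ltf (1.33 ± 0.227) and Camp (1.04 ± 0.375) came last. There the ranges overlapped for Lcn2 and Ngp, Ngp and Mmp8, Mmp8 and Mmp9, Cxcr2 and Ltf, and Ltf and Camp. Ngp was 0.102, 0.0985 and 0.133 times Mmp8 per length in 5-HT treated libraries, against 1.60, 1.33 and 1.73 times in untreated libraries. Mmp8 itself rose 8.21-fold, so a gene that did not rise is lower on this scale by construction, and the ratio was not tested.

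Genes of the earliest granules had few counts. Of 6 primary granule genes, only Mpo, myeloperoxidase, could be tested. Mpo had 11, 16 and 20 counts in 5-HT treated libraries, against 40, 32 and 26 counts in untreated libraries, and did not pass (log2 -0.86, SE 0.35, edgeR adjusted p = 0.189). By edgeR 0 of this list was higher and 0 lower, and DESeq2 and limma also called 0. At an unadjusted p under 0.05 edgeR gave 1 lower, Mpo, against 11.5% of all genes tested. Elane, neutrophil elastase, had 0, 3 and 0 counts in 5-HT treated libraries, against 9, 5 and 3 counts in untreated libraries. Prtn3, proteinase 3, had 6, 18 and 5 counts in 5-HT treated libraries, against 6, 6 and 10 counts in untreated libraries. Ctsg, cathepsin G, had 0, 1 and 1 counts in 5-HT treated libraries, against 6, 3 and 3 counts in untreated libraries. Prss57, a serine protease, had 4, 1 and 1 counts in 5-HT treated libraries, against 0, 1 and 0 counts in untreated libraries. Ms4a3, a marker of granulocyte and monocyte progenitors, had 0 counts in every 5-HT treated library, which allows up to 3 counts in each, against 3, 2 and 1 counts in untreated libraries. Of 8 proliferation genes by edgeR 0 passed in either direction, with 0 at an unadjusted p under 0.05, and DESeq2 and limma called 0 (median log2 -0.05). At an unadjusted p under 0.05 limma gave 2 of them lower, against 12.1% of all genes tested. Over the alternative fits 0 to 1 of the 8 was called lower, against 0.652% to 6.37% of all genes tested.

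Other genes listed for mature neutrophils, some of them also expressed by monocytes and macrophages, also rose in part. Of 18 tested surface and secreted genes, 7 rose, 0 fell and 11 did not pass, with a median log2 change of 0.98. The log2 value was positive for 17 of them and negative for Wfdc21 (log2 -0.40, edgeR adjusted p = 0.71). Over all genes tested 4.55% rose and 3.19% fell. DESeq2 called 11 of this list higher (background 7.76%) and limma 7 (4.05%). Fpr2 and Fpr1, receptors for formylated bacterial peptides, rose with log2 changes of 2.47 and 1.94 (SE 0.15 and 0.13, edgeR adjusted p = 0.00107 and 0.00117), and Trem1, an amplifier of myeloid activation, with 1.87 (edgeR adjusted p = 0.00268). None of these 3 lost its call in any of 13 alternative fits. Ccr1, a chemokine receptor, rose with a log2 change of 1.40 (edgeR adjusted p = 0.0077) and did not pass without untreated replicate 1 or 3. Ly6g, the surface marker used to sort mouse neutrophils, had 10, 16 and 6 counts in 5-HT treated libraries, against 0, 1 and 6 counts in untreated libraries, too few to test; the 0 allows up to 3 counts. Retnlg, a resistin-like protein of mature neutrophils, had 38.7, 87.5 and 26.1 FPKM in 5-HT treated libraries and 16.9, 31.2 and 16.0 FPKM in untreated libraries, and did not pass (log2 1.26, SE 0.46, edgeR adjusted p = 0.146).

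Of 14 other granule and cytosol genes tested, 2 rose and 0 fell: Anxa1, annexin A1 (log2 1.06, edgeR adjusted p = 0.0142), and Hdc, the histamine-forming enzyme (log2 0.48, edgeR adjusted p = 0.0468). Hdc missed the threshold in 8 of 13 alternatives. The median of these 14 was 0.56, and the log2 value was positive for 13 and negative for Padi4 (log2 -0.77, edgeR adjusted p = 0.421). Over all genes tested 4.55% rose and 3.19% fell. DESeq2 called 5 of this list higher (background 7.76%) and limma 1 (4.05%). Fpr1, Fpr2, Trem1, Ccr1 and Anxa1 are also expressed by monocytes and macrophages, and which cells gave their reads was not tested.

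**Figure D5:**
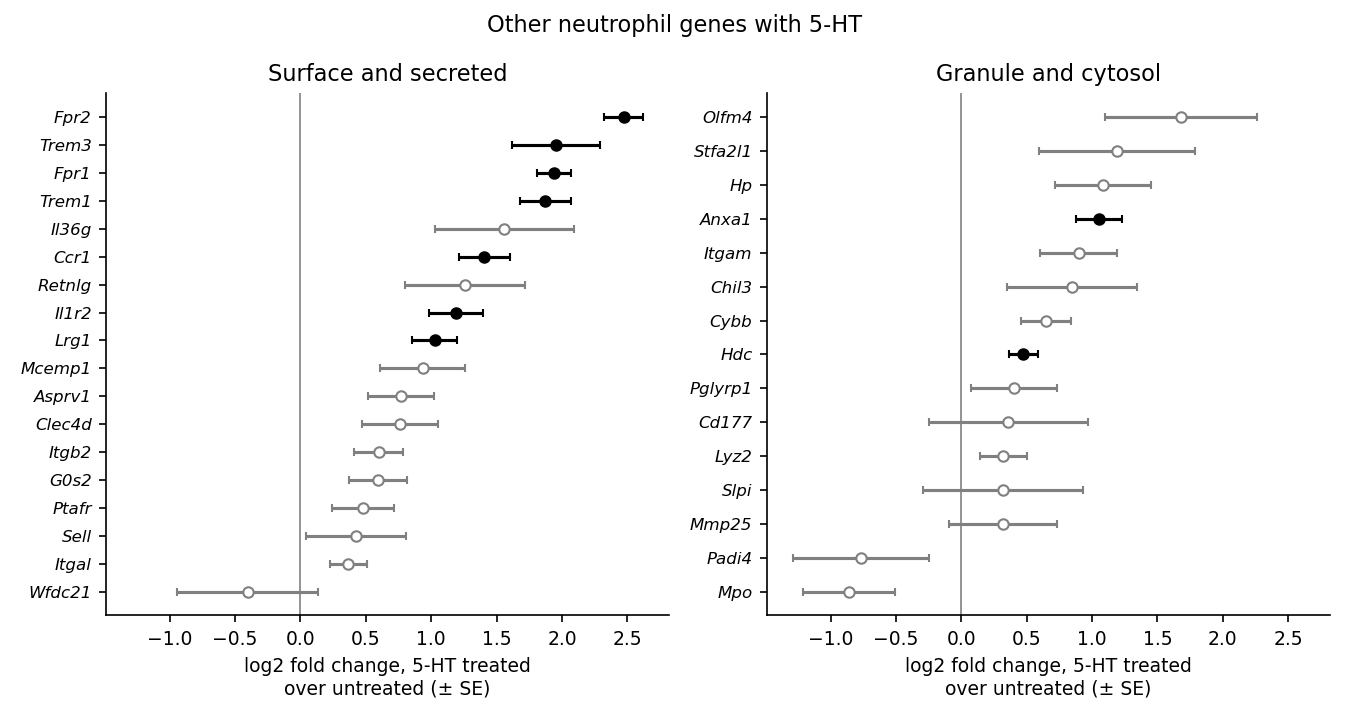
Log2 fold change of 5-HT treated over untreated (± SE) for the tested genes of neutrophil surface and secreted proteins (left) and granule and cytosol proteins, with Mpo (right). Filled points have an edgeR adjusted p under 0.05: 7 on the left and 2 on the right.

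None of the genes for ligands of the receptors passed the test. By edgeR 0 of 7 ligand genes of Cxcr2 and Csf3r passed in either direction, against 4.55% higher and 3.19% lower over all genes tested. At an unadjusted p under 0.05 edgeR gave 1 higher and 3 lower, against 12.7% and 11.5% of all genes tested. DESeq2 called 1 lower (background 6.37%) and limma 0 (2.89%). Csf3, which encodes the ligand of Csf3r, had 0.27, 0.32 and 0.25 FPKM in 5-HT treated libraries, against 1.83, 0.50 and 0.85 FPKM in untreated libraries (log2 -1.91, SE 0.56, edgeR adjusted p = 0.0841). Cxcl1, a ligand of Cxcr2, had 20.6, 24.7 and 21.0 FPKM in 5-HT treated libraries, against 76.2, 19.8 and 63.9 FPKM in untreated libraries, where replicate 2 lay with the treated ones (log2 -1.27, edgeR adjusted p = 0.126). Downstream of Csf3r, the kinase gene Jak2 and the transcription factor gene Stat3 rose (log2 0.51 and 0.57, edgeR adjusted p = 0.0459 and 0.0107), while Socs3, a feedback inhibitor, had a log2 value of 0.28 and did not pass (0.354). Of 13 alternatives, Jak2 did not pass in 8 and Stat3 in 2. Of 10 tested granulocyte transcription factor and signalling genes these 2 rose and 1 fell, Cebpd, a C/EBP factor (log2 -0.72, edgeR adjusted p = 0.0324), which did not pass in 5 of 13. Cebpe, the C/EBP factor that drives secondary granule genes, had 6, 3 and 18 counts in 5-HT treated libraries and 14, 7 and 7 counts in untreated libraries, too few to test. Tlr4, a receptor of calprotectin as well as of endotoxin, rose, with 18.4, 15.7 and 18.6 FPKM in 5-HT treated libraries against 7.76, 8.26 and 8.70 FPKM in untreated libraries (log2 1.10, edgeR adjusted p = 0.00187). Of the 9 tested genes for receptors and inhibitors of these proteins, Tlr4 and Timp1 were the 2 that rose, and 0 fell. Beside this list and the granulocyte factor list, 4.55% of all genes tested rose and 3.19% fell.

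The 10 genes outside the set whose profile over the 6 libraries was most like it were named by the root mean square difference, on the centred log2(FPKM + 1) scale, from the mean profile of the 9 tested genes. They were Ccr1, Cd33, Trem3, Il1r2, Mzb1, Trem1, Slc16a3, Gda, Cxcr6 and Cd101, with differences from 0.157 to 0.258, against a median of 0.772 over 11642 genes compared. Most are known from myeloid cells: Cd33 is a sialic acid-binding inhibitory receptor, Trem3 an activating receptor, Il1r2 the decoy receptor of interleukin-1, and Cd101 a surface protein that marks mature mouse neutrophils. Mzb1 is a chaperone of antibody-secreting cells. Cd101 had 1.62, 2.83 and 1.39 FPKM in 5-HT treated libraries, against 0.48, 0.31 and 0.58 FPKM in untreated libraries. Since the profile holds the contrast between the groups, these genes were chosen for their difference and it was not tested further.

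The labelled cell type was checked against markers. The Kupffer cell markers Clec4f, Vsig4 and Timd4 were present in all libraries, Clec4f at 250 to 311 FPKM in 5-HT treated and 150 to 217 FPKM in untreated libraries. So were endothelial markers, with Stab2 at 249 to 356 FPKM in 5-HT treated and 453 to 458 FPKM in untreated libraries. Summed over 8 endothelial markers, FPKM was 2833 to 3773 in 5-HT treated and 3416 to 3442 in untreated libraries. In every library this was above the sum of the 14 Kupffer cell markers. Sums over different markers do not give shares of cells. Lyve1 had 794 to 1022 FPKM in 5-HT treated and 248 to 268 FPKM in untreated libraries (log2 1.79, edgeR adjusted p = 0.00138). Of the 8 endothelial genes 1, Lyve1, rose and 3 fell. The 3 were 0 without untreated replicate 1, untreated replicate 3 or 5-HT treated replicate 1, and 2 without untreated replicate 2 or 5-HT treated replicate 2. Over all genes tested the lower share was 3.19% with all libraries. It was 0.652%, 0.68% and 1.29% in the fits that gave 0, and 3.98% and 2.86% in the fits that gave 2. Summed over 14 Kupffer cell markers, FPKM was 1338 to 1578 in 5-HT treated and 789 to 1133 in untreated libraries, lowest in untreated replicate 2. Of the 14, 5 rose, a count that was 1 without untreated replicate 3, 2 without untreated replicate 1, 3 without 5-HT treated replicate 1 and 10 by DESeq2. Over all genes tested 4.55% rose, and the share in those fits was 1.29%, 1.28%, 1.97% and 7.76% in the same order. Summed over 10 monocyte markers, FPKM was 187 to 291 in 5-HT treated and 181 to 308 in untreated libraries. By edgeR 1 of these, Treml4, rose (log2 1.67, edgeR adjusted p = 0.00164). Ly6c2 and Ccr2 mark inflammatory monocytes, and neither passed (log2 -0.22 and 0.67, edgeR adjusted p = 0.756 and 0.323). Eosinophil and basophil markers summed to 30.7 to 44.1 FPKM in 5-HT treated and 30.2 to 40.6 FPKM in untreated libraries. B and plasma cell markers summed to 162, 353 and 92.0 FPKM in 5-HT treated libraries against 91.0, 91.2 and 156 FPKM in untreated libraries, and cholangiocyte markers to 299, 664 and 241 FPKM in 5-HT treated libraries against 216, 974 and 249 FPKM in untreated libraries. Among treated libraries, replicate 2, where 9 of the 10 genes were highest, had the highest sum and replicate 3, where all 10 were lowest, the lowest in 8 of the 11 cell type lists, the exceptions being Kupffer cell, endothelial and hepatocyte markers. Hepatocyte markers summed to 1541, 1297 and 474 FPKM in 5-HT treated libraries against 842, 601 and 911 FPKM in untreated libraries. Alb gave most of these sums, and 5 of the 7 markers had a negative log2 value, Cyp2e1 the lowest at -1.34 (edgeR adjusted p = 0.0648). T and NK cell markers summed to 52.6, 72.4 and 38.5 FPKM in 5-HT treated libraries against 117, 37.5 and 115 FPKM in untreated libraries, and stellate cell and fibroblast markers to 41.0, 114 and 38.1 FPKM in 5-HT treated libraries against 162, 90.1 and 159 FPKM in untreated libraries. Erythroid and platelet markers summed to 44.9, 137 and 25.7 FPKM in 5-HT treated libraries against 152, 22.6 and 161 FPKM in untreated libraries, where replicate 2 was the lowest. Dendritic cell markers summed to 66.0 to 78.1 FPKM in 5-HT treated and 79.4 to 102 FPKM in untreated libraries. Of these lists edgeR called Sdc1 of the B and plasma cell list higher and Reln of the stellate list lower. Sdc1 did not pass in 10 of 13 alternatives, among them each of the 6 that leave out 1 library. Reln did not pass without 5-HT treated replicate 1. Without 5-HT treated replicate 2 the stellate list had 6 lower genes, against 2.86% of all genes tested. The part of these cells in the values of the 10 genes was not tested.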

How the data were processed

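The authors deposited a raw read count and an FPKM per gene for each of the 6 libraries, per the file headers. HISAT2 2.2.1, featureCounts 2.0.1 and mm10 are named in the submitters' processing notes without their steps, and no source used here says if reads were counted by strand. Of 80620 deposited FPKM values of at least 1, 100% were within 0.5% or 2-decimal rounding of the value computed from count, exonic length and column total. Start and end matched GENCODE M21 (GRCm38) for 1472 of the 52073 identifiers found there, of 56691, so positions are those of GENCODE M21, taken by identifier, and of RefSeq GRCm38.p6 for start regions.

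Counts were tested in R 4.3.3 with edgeR 4.0.16 (TMM, filterByExpr, quasi-likelihood, two-sided), 5-HT treated against untreated, with Benjamini-Hochberg adjustment over all 16641 genes tested and a threshold of 0.05. SEs are the log2 change divided by the square root of F. The code was tested on simulated data. Alternatives were DESeq2 1.42.0, limma 3.58.1 on log2(FPKM + 1) and log2(FPKM + 0.1), other size factors, no filter, the replicate number as a block, and each library left out in turn; leaving out replicate 2 of both groups was added after seeing the data. The 10 genes, 7 program lists and 11 cell type lists were chosen with earlier results of these data known. Lists are described by counts and medians, with no list test. Besides the 10 genes, the text names the 10 most like them by profile (mean FPKM of at least 1; no clone, predicted or immunoglobulin segment names). From the lists the rule was the genes past the threshold, up to 4 by smallest p, and the 2 most abundant cell type markers; of these only the ones a result turns on are named. List genes named without passing were chosen after their values were seen. BC100530 of the granule list was not found by symbol.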

Additional observations from a re-analysis of the deposited data

How the results depend on the processing

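Over 122 alternative fits of the 10 genes, 95 kept the direction and the side of the threshold, 19 lost a call, 8 gained one and 0 changed sign. Leaving out 1 library at a time, edgeR called 0 to 7 of the 10 genes higher and 0 to 1 lower. In the same fits 1.28% to 3.94% of all genes tested were higher and 0.652% to 3.98% lower. The count of 0 higher came without untreated replicate 1 or 3, and the 1 lower was Ngp without 5-HT treated replicate 2. Without replicate 2 of both groups, chosen after seeing the data, 7 were higher and 1 lower (6.06% and 6.2% of all genes tested). The mature to immature log2 difference of 1.01 was 0.988 without S100a8 and S100a9, and 2.76 with Lcn2 left out of the immature set. As a difference of means over each set it was 1.79 with log2(FPKM + 1) and 2.21 with log2(FPKM + 0.1). With 1 library left out it was 0.55 to 1.27.

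Same-numbered libraries deviated together weakly or not at all: their correlations over 16641 genes were 0.07, 0.07 and -0.01. Over all pairs of a treated and an untreated library the values ran from -0.14 to 0.09. For 5-HT treated replicates 1 and 2 the untreated library of the same number correlated best. For 5-HT treated replicate 3 it was untreated replicate 1 (0.09). With the replicate number as a block 5 genes were higher and 0 lower (3.26% and 2.13% of all genes tested): S100a9 and Mmp9 were not past the threshold (edgeR adjusted p = 0.0691 and 0.0816) and Lcn2 was (0.0137). Counts of calls in other lists also changed between settings, as did the share over all genes tested. That share ran from 1.28% to 7.76% higher and from 0.652% to 6.37% lower. The list of other mature neutrophil genes gave 3 to 11 of 20 higher, the other granule and cytosol list 0 to 6 of 16. The ligands of Cxcr2 and Csf3r gave 0 to 3 of 7 lower. The Kupffer cell list gave 1 to 10 of 14 higher and the B and plasma cell list 0 to 3 of 7. The granulocyte factor list gave 0 to 3 of 11 higher and 0 to 1 lower. The endothelial list gave 0 to 4 of 8 lower and the stellate list 0 to 6 of 8 lower. Depth limited Camp, Ly6g, Cebpe and 5 of 6 primary granule genes, which had too few counts to test.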

Other observations

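Over 18114 to 18994 genes, libraries of a group were compared by chi-square per degree of freedom, the spread of their counts relative to counting noise. Untreated replicates 1 and 3 had 6.384, against 22.75 and 26.74 for untreated pairs with replicate 2. Treated pairs had 23.15 to 56.45. Why replicates 1 and 3 were closer was not tested. Untreated replicate 2 stood apart from the other untreated libraries also in several neutrophil and monocyte genes, chosen after their values were seen. Chil3, a chitinase-like protein of neutrophils and macrophages, had 68.0, 105 and 40.5 FPKM in 5-HT treated libraries, against 23.6, 72.3 and 23.9 FPKM in untreated replicates 1, 2 and 3. Cd177, a neutrophil surface protein, had 2.16, 5.03 and 1.46 FPKM in 5-HT treated libraries against 1.24, 4.31 and 1.26 FPKM in untreated ones. The monocyte marker Ly6c2 had 12.1, 15.8 and 12.3 FPKM in 5-HT treated libraries against 10.9, 26.3 and 10.2 FPKM in untreated ones, again highest in replicate 2. Mmp8, Lcn2, Ngp, Ltf and Csf3r were also highest among untreated libraries there, while S100a8, S100a9, Mmp9, Cxcr2 and Camp were lowest. Padi4, which encodes a histone-modifying enzyme of neutrophils, had 1.02, 1.89 and 0.51 FPKM in 5-HT treated libraries against 2.44, 0.95 and 2.41 FPKM in untreated ones.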
